A study of Mus musculus with 59 samples.

Results

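The subject here is how H3K27ac and H3K4me3 varied together among uteri of mice aged 54 to 65 weeks. The 20 libraries of this age, 10 for each mark, were taken from the 59 samples of the series, and the libraries of the 2 marks were joined by the mouse number in their names, which gave 10 animals. The study profiled uterine tissue of C57/B6 mice over reproductive aging by native chromatin immunoprecipitation with sequencing (ChIP-seq). All 10 animals were of the strain C57/B6, carried no stated allele and received no stated treatment. Animal 4 was 54 weeks old, animals 6, 7, 9 and 10 were 60 weeks old, animal 3 was 63 weeks old, animals 1, 2 and 5 were 64 weeks old, and animal 8 was 65 weeks old. Per the labels' protocols, nuclei came from pieces of frozen endometrial tissue, and the digested chromatin of an animal was divided between the antibodies. Each animal therefore had 1 library per mark from a shared preparation, so differences between animals and between preparations cannot be told apart. No other age was compared.

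H3K4me3 is laid down at the starts of active and poised genes by the COMPASS family of methyltransferases, which bind unmethylated CpG-rich DNA. H3K27ac is written by the acetyltransferases p300 and CBP at active promoters and enhancers and is removed by histone deacetylases. The uterus holds luminal and glandular epithelium, stroma, smooth muscle, vessels and leukocytes, and its epithelium and stroma respond to oestrogen and progesterone.

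For every H3K4me3 peak, the H3K27ac peak sharing the most bases with it was taken as its partner. Of 25827 H3K4me3 peaks, 20883 (80.9%) had one, and 18913 of these pairs held a mean of at least 20 reads per library in both marks, while 1970 did not. The 18913 pairs belonged to 12864 genes, and 12228 of them were promoter pairs, whose H3K4me3 peak lay within 1 kb of the nearest RefSeq start of any gene. Levels are log2 RPKM, reads scaled for peak length and library total, quantile normalized over the 10 libraries of a mark, so a level is comparable within a mark and not between marks. H3K27ac libraries held 7.60 M to 13.3 M reads, 34.5% to 48.3% of them in peaks, and H3K4me3 libraries held 7.36 M to 12.5 M reads, 36.3% to 71.9% of them in peaks. The median over pairs of the mean reads per library was 108.5 for the H3K27ac peak and 253.5 for the H3K4me3 peak.

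The promoters of 7 genes are shown because they stand for the ends of the range of spread that follows, in both marks or in H3K4me3 alone, and for an exception. They are the 250 bases before the gene start, from RefSeq on GRCm38.p6, read along the gene's strand, with each CpG in capitals. Muc4, Padi1, Lcn2 and Pigr were among the genes whose marks varied most between animals, and they hold 1, 0, 3 and 4 CpGs. Aqp5 varied as widely and holds 38. At Hipk2, with 43 CpGs, H3K4me3 hardly varied while H3K27ac ran from 0.94 to 2.03, and at Ube3c, with 46, neither mark varied beyond read counting. These 2 are the most CpG-rich of the matched genes described below for a nearly level H3K4me3 or for the least spread in both marks. Cep85, of the least spread, holds 18. Nedd8 holds 17, Rae1 20 and Fbxo42 31, and there, as at Hipk2, H3K27ac was called the more variable mark. The median over 7862 matched promoters was 17. Of the other widely varying genes matched, Trpv6 holds 1, Oit1 2, Tmprss11g 3, Fer1l4 5 and Mall 11.
Muc4, chr16:32735636-32735885, plus strand: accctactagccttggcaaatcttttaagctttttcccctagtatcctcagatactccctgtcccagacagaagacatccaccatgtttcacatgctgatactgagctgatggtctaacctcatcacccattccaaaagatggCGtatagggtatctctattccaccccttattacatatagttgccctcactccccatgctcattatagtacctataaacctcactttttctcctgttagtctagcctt
Padi1, chr4:140845779-140846028, minus strand: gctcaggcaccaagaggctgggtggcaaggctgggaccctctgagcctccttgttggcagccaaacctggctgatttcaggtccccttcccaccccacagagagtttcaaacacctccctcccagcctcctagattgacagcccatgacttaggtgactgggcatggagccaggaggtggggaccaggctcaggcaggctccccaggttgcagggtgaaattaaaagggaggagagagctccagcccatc
Lcn2, chr2:32387740-32387989, minus strand: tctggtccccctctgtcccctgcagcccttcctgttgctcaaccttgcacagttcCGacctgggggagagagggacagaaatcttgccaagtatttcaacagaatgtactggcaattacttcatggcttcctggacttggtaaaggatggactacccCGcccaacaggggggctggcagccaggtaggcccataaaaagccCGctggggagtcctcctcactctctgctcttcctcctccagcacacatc
Pigr, chr1:130826434-130826683, plus strand: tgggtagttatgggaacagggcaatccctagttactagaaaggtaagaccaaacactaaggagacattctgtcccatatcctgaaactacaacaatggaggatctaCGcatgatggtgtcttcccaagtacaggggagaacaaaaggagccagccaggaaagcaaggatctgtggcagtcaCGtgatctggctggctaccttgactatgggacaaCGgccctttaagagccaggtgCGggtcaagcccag
Aqp5, chr15:99590778-99591027, plus strand: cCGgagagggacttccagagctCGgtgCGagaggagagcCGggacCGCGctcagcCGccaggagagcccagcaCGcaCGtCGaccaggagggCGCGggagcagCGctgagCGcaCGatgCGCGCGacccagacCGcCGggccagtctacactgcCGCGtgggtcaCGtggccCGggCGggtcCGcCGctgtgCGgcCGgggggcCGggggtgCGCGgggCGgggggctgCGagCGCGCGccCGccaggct
Hipk2, chr6:38876191-38876440, minus strand: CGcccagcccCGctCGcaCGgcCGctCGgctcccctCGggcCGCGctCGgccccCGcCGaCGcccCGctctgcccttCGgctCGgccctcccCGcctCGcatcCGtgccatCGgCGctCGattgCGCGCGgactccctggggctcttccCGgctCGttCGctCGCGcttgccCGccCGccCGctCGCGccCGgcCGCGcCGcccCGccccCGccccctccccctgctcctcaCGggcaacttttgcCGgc
Ube3c, chr5:29568992-29569241, plus strand: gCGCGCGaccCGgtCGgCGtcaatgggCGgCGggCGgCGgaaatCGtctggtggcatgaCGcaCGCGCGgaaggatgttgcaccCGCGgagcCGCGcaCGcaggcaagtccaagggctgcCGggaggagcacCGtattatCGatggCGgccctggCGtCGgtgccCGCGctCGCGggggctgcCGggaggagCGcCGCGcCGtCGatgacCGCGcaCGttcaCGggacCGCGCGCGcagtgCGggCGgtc

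At most pairs the 2 marks moved in the same direction from animal to animal. The median Pearson r between H3K27ac and H3K4me3 over the 10 animals was 0.496 (quartiles 0.157 and 0.736), and 83.1% of pairs had r above 0. Tested pair by pair (two-sided, 8 residual degrees of freedom, Benjamini-Hochberg adjusted p under 0.05 over all 18913 pairs), 4370 pairs (23.1%) were positively correlated and 55 (0.291%) negatively. With 1 pair per gene, the median r was 0.490, and 2938 genes (22.8%) were positively and 30 (0.233%) negatively correlated. Animals 3, 4 and 10 stood apart from the others on the main axis of variation, and without them the median r over pairs was 0.411, with 230 pairs called positive and 1 negative over the 7 animals left. In those 7 animals 76.3% of all pairs had r above 0. In bulk tissue, fewer cells of a type and less of a mark per cell cannot be told apart.

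The correlation was higher where the marks varied more. Over 4 equal bins of pairs ranked by the geometric mean of their 2 standard deviations (SDs), the median r was 0.208, 0.422, 0.557 and 0.774 from the lowest to the highest bin, and the share called positive was 3.32%, 12.2%, 23.3% and 53.6%. In the lowest bin the median SD was 0.22 for H3K27ac and 0.12 for H3K4me3 on the log2 scale, and it was 0.17 and 0.09 once the variance of read counting was subtracted. Counting error thus made up more of the spread there, and its part in the lower r was not tested. By the level of H3K4me3, the median r was 0.583, 0.572, 0.506 and 0.326 from the lowest to the highest bin, and by the level of H3K27ac it was 0.620, 0.529, 0.427 and 0.404. Promoter pairs had a median r of 0.50 with 24% called positive, pairs elsewhere within a gene 0.522 with 23.1%, and pairs outside genes 0.435 with 18.8%.

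**Figure D1:**
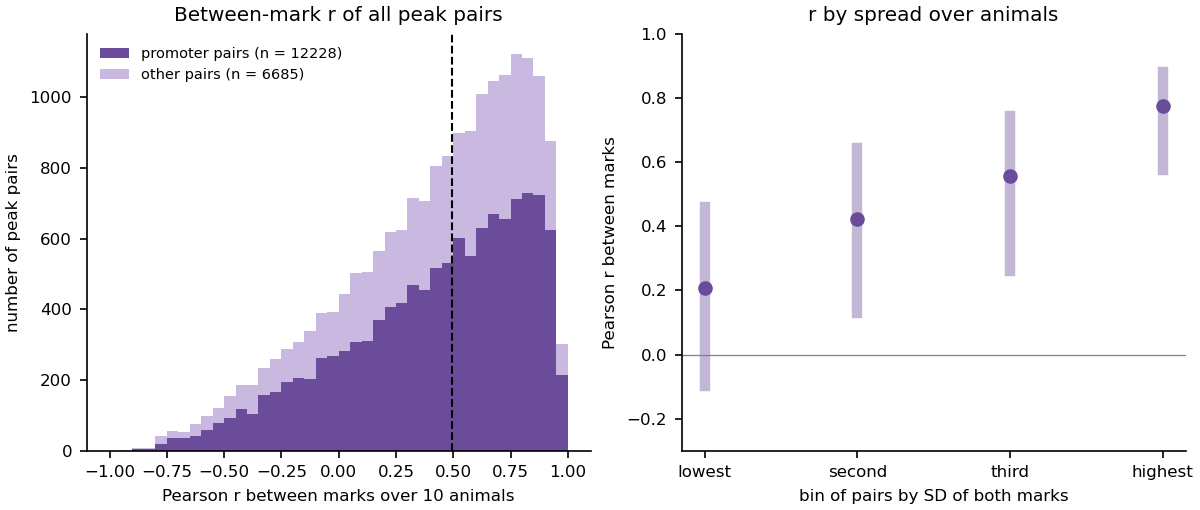
Left, number of peak pairs by Pearson r between H3K27ac and H3K4me3 over 10 animals, with promoter pairs in dark and other pairs in light purple and the median of 0.496 as a dashed line. Right, median r (points) and quartiles (bars) in 4 equal bins of pairs ranked by the SD of both marks. The median is 0.208 in the lowest bin and 0.774 in the highest.

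The correlation was higher with the overlapping H3K27ac peak than with its neighbours. The nearest H3K27ac peak that did not overlap the same H3K4me3 peak had a median r of 0.286 with it when it lay up to 2 kb away (n = 3279), against 0.534 for the overlapping partner of those peaks. Neighbours at 2 to 10 kb had a median r of 0.182 against 0.487, those at 10 to 50 kb 0.133 against 0.481, and those over 50 kb away 0.128 against 0.513. With counting noise included, the median SD was 0.47 for the neighbouring peaks and 0.36 for the overlapping peaks, and the part of counting noise in the lower r was not tested.

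The libraries of the 2 marks matched animal by animal. Across all pairs, the deviations of an animal's H3K27ac from the mean of the 10 animals correlated best with the deviations of its own H3K4me3 in 10 of 10 animals, and the same held starting from H3K4me3. The own-animal r ran from 0.286 in animal 1 to 0.664 in animal 10 (median 0.549), and r with another animal's H3K4me3 ran from -0.562 to 0.518. Within an animal the coupling was tighter at promoters. It averaged 0.579 ± 0.104 at promoter pairs and 0.471 ± 0.0997 at other pairs (SD, n = 10), a difference of 0.107 ± 0.0517 that was positive in 10 of 10 animals. The two-sided exact sign-flip permutation test gave p = 0.00195, the smallest that 10 animals allow. The deviations are from the mean of the same 10 animals, so the 10 differences are not independent, and the test treats them as if they were. Taken pair by pair over animals, the median r was close in the 2 classes, 0.50 at promoter pairs and 0.490 at other pairs. Promoter pairs held more reads per peak, a median of 122 for H3K27ac and 387 for H3K4me3, against 80.0 and 55.2 at other pairs, and the part of read depth in the difference was not tested.

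**Figure D2:**
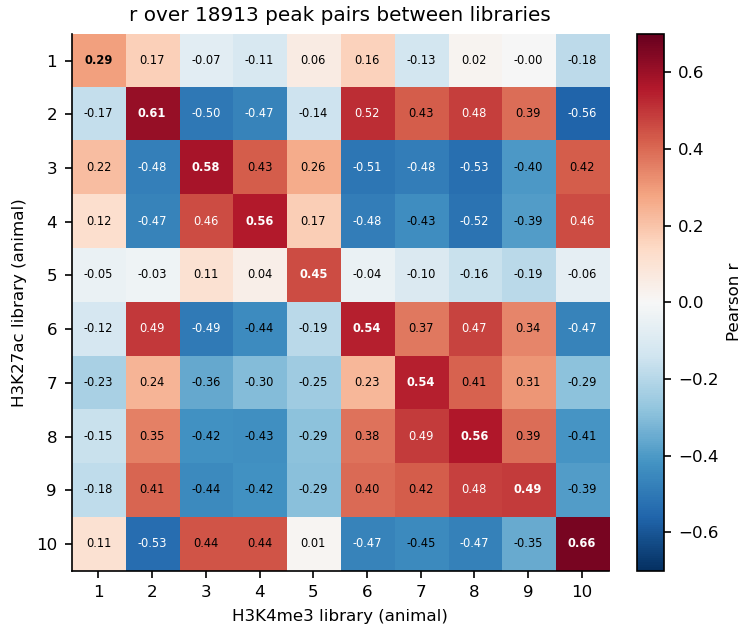
Pearson r over 18913 peak pairs between the deviations of each H3K27ac library (rows, animals 1 to 10) and each H3K4me3 library (columns, animals 1 to 10) from the mean of the 10 animals of its mark. The diagonal holds the own-animal values, from 0.286 to 0.664, each the highest of its row and its column, and animals 3, 4 and 10 form a block of positive values.

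A single axis carried much of the variation in both marks. The first principal component held 52% of the variance of H3K27ac and 57.2% of that of H3K4me3 over the animals. On it, animals 3, 4 and 10 scored between -0.52 and -0.41 in both marks, animals 1 and 5 between -0.14 and 0.02, and animals 2, 6, 7, 8 and 9 between 0.24 and 0.34. The scores of the 2 marks correlated with r = 0.989 (permutation p = 3e-05, adjusted p = 0.00018) and rho = 0.891 (permutation p = 0.00101, adjusted p = 0.00404). Adjusted values here are over the 12 relations computed across animals. The r was 0.981 without the 2 animals farthest from the median and 0.973 in the 7 animals other than 3, 4 and 10. The second component, with 15.7% and 11.2% of the variance, correlated between marks with r = 0.947 (permutation p = 2e-05, adjusted p = 0.00018; rho = 0.952, permutation p = 0.00015, adjusted p = 0.0018), and with r = 0.947 without the farthest 2 animals.

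The first axis ran alongside the balance of epithelial and stromal genes. For each animal, the mean level of the measured epithelial markers minus that of the stromal markers was taken as a score. The H3K27ac score was 0.02 in animal 3, -0.34 in animal 4 and -1.44 in animal 10, and lay between 0.98 and 1.68 in the other 7 animals. The H3K4me3 score was -0.22, -0.25 and -1.31 in animals 3, 4 and 10 and lay between 0.70 and 2.01 in the other 7. The 3 animals were thus below the other 7 in both marks, with no overlap. Between marks the score correlated with r = 0.950 (permutation p = 0.00015, adjusted p = 0.00045) and rho = 0.806 (permutation p = 0.00765, adjusted p = 0.0184), with r = 0.871 without the 2 farthest animals and r = 0.603 in the other 7, where the permutation p was 0.135. The first component correlated with this score with r = 0.899 for H3K27ac (rho = 0.879, adjusted permutation p = 0.000768 and 0.0051) and r = 0.961 for H3K4me3 (rho = 0.915, adjusted permutation p = 0.0002 and 0.00306). Without the 2 farthest animals these were 0.844 and 0.962, and in the other 7 they were 0.468 and 0.918. Some other lists, described below, followed the same score. The r of their mean level with it, for H3K27ac and H3K4me3, was 0.928 and 0.950 for oestrogen-responsive genes. It was -0.947 and -0.976 for collagen and matrix genes, and 0.267 and 0.0623 for genes of all leukocytes. The epithelial and oestrogen lists share Lcn2 and Ltf, and which list the axis follows was not tested.

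Other features of the libraries were also set against the first component. Its r with the log2 total reads was 0.634 for H3K27ac (rho = 0.467, adjusted permutation p = 0.0689 and 0.309) and 0.514 for H3K4me3 (rho = 0.406, adjusted permutation p = 0.199 and 0.367), and was 0.0198 and 0.236 without the 2 farthest animals. Here the 2 farthest animals were those farthest from the median of the feature itself, so they differ between relations. In the 7 animals other than 3, 4 and 10 the r with total reads was 0.588 and 0.173. The r with the share of reads in peaks was -0.559 for H3K27ac and -0.227 for H3K4me3 (rho = -0.600 and -0.285, adjusted permutation p of r 0.162 and 0.589), and -0.104 and -0.151 without the 2 farthest animals. In those 7 animals it was -0.649 and -0.423. The r with age was 0.351 and 0.302 (rho = 0.241 and 0.209, adjusted permutation p of r 0.445 and 0.501), and -0.115 and -0.214 without the 2 farthest animals. In the same 7 animals it was -0.438 and -0.445. The share of reads in peaks was related between the marks with r = 0.205 (rho = -0.139, adjusted permutation p of r 0.589). None of these 7 relations passed the threshold of 0.05. Holding the epithelium minus stroma score fixed in a partial correlation left a median r of 0.356 over pairs and 484 pairs called positive, against 0.496 and 4370 with no covariate. Holding the total reads of both libraries fixed left a median r of 0.487 and 1960 pairs called positive.

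**Figure D3:**
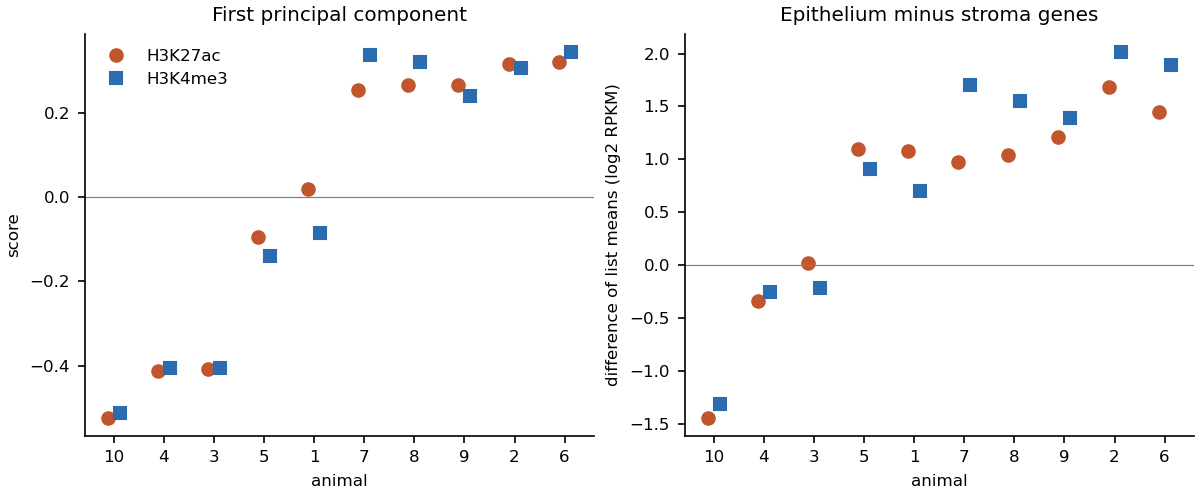
Score on the first principal component (left) and mean level of epithelial minus stromal genes in log2 RPKM (right) in each of 10 animals, for H3K27ac (orange circles) and H3K4me3 (blue squares), with animals ordered by their H3K27ac component score. Animals 10, 4 and 3 lie lowest in both panels and both marks.

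The genes that varied most in both marks were chosen for that spread, so their SDs are given as a description. They were taken from the 8158 genes with a symbol of their own whose mean level was in the upper 3 of 4 equal bins of pairs in both marks, at least 1.29 for H3K27ac and 2.2 for H3K4me3. Genes below these levels could vary as widely: Ltf, Lcn2, Aqp5 and Ihh, described with their lists, had mean H3K27ac levels of 1.45, 1.90, 1.06 and 0.85 and mean H3K4me3 levels of 1.44, 1.94, 2.33 and 2.74. The 9 described are promoter pairs, at Oit1, Fer1l4, Muc4, Pigr, Padi1, Mall, Trpv6, Oprm1 and Tmprss11g. At Muc4, a membrane mucin of epithelial surfaces, H3K27ac ran from -0.08 through a median of 2.06 to 2.83 log2 RPKM, and H3K4me3 from -0.43 through 2.75 to 4.12. Animal 10 was lowest in both marks, and animals 3, 4 and 10 lay below all others. The SD was 1.05 for H3K27ac and 1.77 for H3K4me3, and the marks correlated with r = 0.935 (rho = 0.927, adjusted p = 0.00258). At Pigr, the receptor that carries polymeric IgA across epithelium, H3K27ac ran from -0.21 through 2.26 to 3.02 and H3K4me3 from 1.37 through 3.39 to 4.61, with animal 2 highest in both (r = 0.967, rho = 0.964, adjusted p = 0.000749). At Padi1, a peptidylarginine deiminase, H3K27ac ran from 0.22 through 1.68 to 2.39 and H3K4me3 from -0.17 through 3.28 to 4.2. Its SD was 0.82 for H3K27ac and 1.81 for H3K4me3, which was the more variable mark (Pitman-Morgan test of equal variance in paired values, adjusted p = 0.00531).

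At Trpv6, an epithelial calcium channel, H3K27ac ran from -0.57 through 2.24 to 2.97 and H3K4me3 from 1.38 through 3.43 to 4.36, both lowest in animal 10 (r = 0.904, rho = 0.903, adjusted p = 0.00572). At Oprm1, the mu opioid receptor, H3K27ac ran from -0.41 through 1.74 to 2.90, lowest in animal 4, and H3K4me3 from 1.42 through 3.52 to 4.08, lowest in animal 3 (r = 0.948, rho = 0.891, adjusted p = 0.00175). Over these 9 genes r ran from 0.882 to 0.975 and rho from 0.733 to 0.976. The permutation p ran from 1e-05, the smallest 100000 permutations can give, to 0.00274 for r and from 3e-05 to 0.0208 for rho. Leaving out the 2 farthest animals gave r of 0.801 to 0.974, and the 7 animals other than 3, 4 and 10 gave 0.80 to 0.986. H3K27ac was lowest in animal 3, 4 or 10 at all 9 of these genes, and H3K4me3 at 8. The genes were chosen for spread and the animals from the main axis of the same data, so these counts are a description. By a stricter count over all 18913 pairs, the 3 animals together were lowest in both marks at 652 (3.45%) and highest in both at 818 (4.33%). With the epithelium minus stroma score held fixed, r was 0.603 at Muc4, 0.793 at Pigr, 0.215 at Trpv6 and 0.947 at Tmprss11g, a membrane serine protease, the only gene of the 9 that stayed past the threshold (adjusted p = 0.0191).

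Among the 8158 genes, 1170 had both SDs above the median pair, and the 8 of these with a positive r and the smallest p were Rncr4, Dapk1, Pmepa1, Eva1a, Barx2, Lpar3, Tm4sf1 and Ttc9, also chosen for what is listed here. At Dapk1, a death-associated protein kinase, H3K27ac ran from 1.00 through 1.55 to 2.36 and H3K4me3 from 3.02 through 3.32 to 3.92, both lowest in animal 9 and highest in animal 5 (r = 0.988, rho = 0.952, adjusted p = 0.000186). At Lpar3, a lysophosphatidic acid receptor needed for embryo spacing in mice, H3K27ac ran from 1.32 through 1.63 to 2.48 and H3K4me3 from 2.11 through 2.75 to 4.26. Both were lowest in animal 8 and highest in animal 5 (r = 0.984, rho = 0.976, adjusted p = 0.000258). At Barx2, a homeobox factor, H3K27ac ran from 0.20 through 2.04 to 2.69 and H3K4me3 from 2.67 through 3.56 to 4.19, again highest in animal 5 and lowest in animal 10 (r = 0.985, rho = 0.988, adjusted p = 0.000251). The order of animals thus differed between these genes. At Pmepa1, an inhibitor of TGF-beta signalling, both marks were lowest in animal 4 and highest in animal 8, while at Tm4sf1, a small membrane protein, both were highest in animal 4.

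Over these 8 genes the permutation p ran from 1e-05 to 0.0001 for r and from 2e-05 to 0.0127 for rho. The r was 0.854 to 0.984 without the 2 farthest animals and 0.836 to 0.996 in the 7 animals other than 3, 4 and 10. With the epithelium minus stroma score held fixed it was 0.986 at Dapk1, 0.991 at Lpar3, 0.970 at Barx2 and 0.874 at Ttc9, and Ttc9 was the one of the 8 that no longer passed the threshold (adjusted p = 0.0611). In the values as deposited, Rncr4, Eva1a and Ttc9 did not pass it (adjusted p = 0.152, 0.0882 and 0.0627). At Rncr4, a non-coding RNA, animal 10 alone was low: its H3K27ac was -0.02 with the next animal at 1.10, and its H3K4me3 was 2.37 with the next at 3.14 (r = 0.989 with animal 10 included, 0.854 without the 2 farthest animals).

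Opposite movement was rare at every level of spread. The share of pairs called negative was 0.486%, 0.233%, 0.233% and 0.212% from the bin of lowest to that of highest SD. Of all 12864 genes, 30 (0.233%) were called negative. The 8 genes of lowest r among the same 1170 were Mks1, Abcb8, Rhobtb2, Traip, Smtnl1, Lrr1, Scd3 and Btbd2, with r from -0.745 to -0.371, and 0 of the 8 passed the threshold, with 2 at an unadjusted p under 0.05 (adjusted p from 0.0544 to 0.445; permutation p of r from 0.0163 to 0.288). At Mks1, a protein of the ciliary base, H3K27ac ran from 0.81 through 1.81 to 2.28, lowest in animal 10, and H3K4me3 from 3.45 through 3.74 to 4.30, highest in animal 10 (r = -0.745, rho = -0.745). At Abcb8, a mitochondrial transporter, H3K27ac ran from 1.56 to 2.75 and H3K4me3 from 3.53 to 4.46, and animal 10 again held the lowest H3K27ac and the highest H3K4me3 (r = -0.704, rho = -0.770). Without animal 4 both passed the threshold (r = -0.823 at Mks1 and -0.872 at Abcb8, adjusted p = 0.04 and 0.0207), and so did Mks1 without animal 5 (adjusted p = 0.0302), with median centring (r = -0.768, adjusted p = 0.0407) and with the mouse number series held fixed (r = -0.807, adjusted p = 0.0449). Abcb8 also passed it with total reads held fixed (r = -0.925, adjusted p = 0.0249). As deposited, r was -0.567 at Mks1 and -0.425 at Abcb8 (adjusted p = 0.266 and 0.434). The r at Mks1 was -0.457 in the animals other than 3, 4 and 10 and -0.103 with the score held fixed. At Rhobtb2, an atypical GTPase, r was -0.518, and 0.185 with the score held fixed. At Lrr1, a ubiquitin ligase receptor, r was -0.424, and 0.160 with total reads held fixed.

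**Figure D4:**
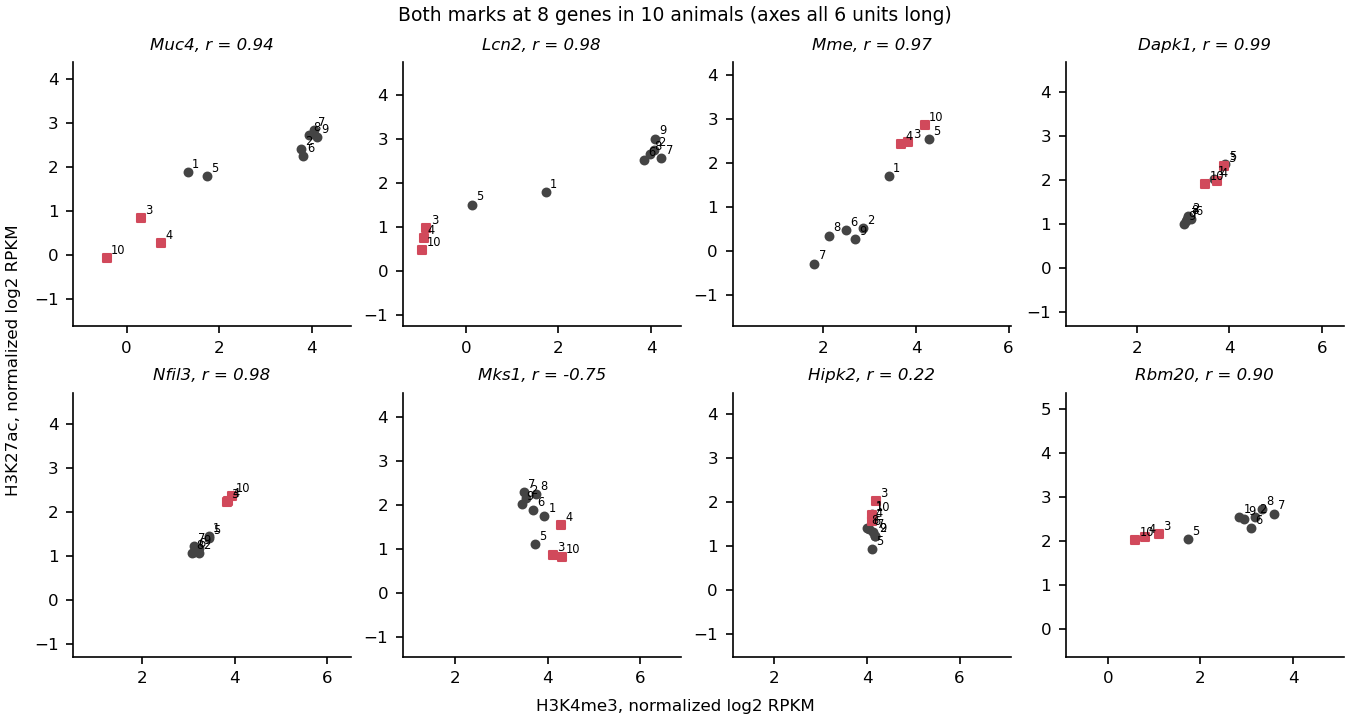
H3K27ac (vertical) against H3K4me3 (horizontal), both in normalized log2 RPKM, at 8 genes, with each point an animal marked by its number and animals 3, 4 and 10 as red squares; all axes span 6 units. Muc4 and Lcn2 rise together over a wide range with animals 3, 4 and 10 low, Mme has them high, Mks1 slopes downward, Hipk2 varies in H3K27ac and Rbm20 mainly in H3K4me3.

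The size of the variation depended on the mark, the place and the scaling. On the quantile-normalized scale the median SD was 0.32 for H3K27ac and 0.24 for H3K4me3 with counting variance subtracted, and the median of the per-pair ratio was 1.28. The Pitman-Morgan test called H3K27ac the more variable mark at 2771 pairs (14.7%) and H3K4me3 at 782 (4.13%). This test used values with counting noise left in. The median SD from counting alone was 0.146 for H3K27ac and 0.0969 for H3K4me3, and its part in the calls was not tested. In the values as deposited, the median ratio was 0.973, and 9 pairs were called with H3K27ac more variable and 97 with H3K4me3 more variable. In those values the median H3K4me3 level of animal 6 was 2.66, against 3.27 to 3.64 in the other 9 animals, and its H3K4me3 library had the lowest share of reads in peaks. At promoters the median SD was 0.28 for H3K27ac and 0.18 for H3K4me3 (ratio 1.45, and 0.987 as deposited). At other pairs it was 0.40 for both marks (ratio 1.00, and 0.939 as deposited). The order of the classes was kept on both scales, while the side of 1 on which the promoter ratio fell was not.

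At the genes with the largest ratio past that test, H3K4me3 was nearly level. At Hipk2, a nuclear kinase, H3K27ac ran from 0.94 through 1.39 to 2.03 and H3K4me3 from 4.00 through 4.11 to 4.2, with SDs of 0.31 and 0.06 before counting variance was subtracted (adjusted p = 0.00522). At Rae1, an mRNA export factor, H3K27ac ran from 1.15 to 2.26 and H3K4me3 from 3.92 to 4.22, and at Nedd8, a ubiquitin-like modifier, from 2.28 to 2.89 and from 4.70 to 4.87 (adjusted p = 0.0177 and 0.0138). These 3 and Fbxo42, an F-box protein (adjusted p = 0.0208), did not pass the threshold in the values as deposited (adjusted p of 0.861 to 0.937), and at Fbxo42 H3K4me3 was there the more variable mark. The calls ended without animal 4 or 5 at Rae1 (adjusted p = 0.0612 and 0.0875) and without animal 6 at Fbxo42 (adjusted p = 0.0608). At Hipk2, Rae1, Nedd8 and Fbxo42 they also ended with median centring (adjusted p of 0.0594 to 0.0737) and without animals 3, 4 and 10 (adjusted p of 0.102 to 0.372). The reverse was seen at Rbm20, Fbln1, Rpl3 and Olfr56. At the pair of the splicing factor gene Rbm20, 4460 bases from the nearest gene start, H3K27ac ran from 2.01 through 2.39 to 2.72 and H3K4me3 from 0.59 through 2.89 to 3.59 (SD 0.26 and 1.14, adjusted p = 0.000934, and 0.0302 as deposited). At Fbln1, a matrix glycoprotein, H3K27ac ran from 1.66 to 2.28 and H3K4me3 from 2.04 to 4.14 (adjusted p = 0.00482, and 0.0988 as deposited). At the ribosomal protein gene Rpl3, H3K27ac ran from 2.18 to 2.48 and H3K4me3 from 3.76 to 4.65 (adjusted p = 0.00424, and 0.289 as deposited). At the pair of the olfactory receptor gene Olfr56, 9451 bases from the nearest gene start, H3K27ac ran from 2.47 to 2.86 and H3K4me3 from 3.35 to 4.81 (adjusted p = 0.00653, and 0.134 as deposited). The calls at Rpl3 and Olfr56 also ended with median centring (adjusted p = 0.0548 and 0.059), and those at Rbm20, Rpl3 and Olfr56 ended without animals 3, 4 and 10 (adjusted p = 0.0848, 0.0745 and 0.102).

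At the promoter pairs of the 4 genes chosen for the least spread, neither mark spread beyond read counting. These were the pairs of Cep85, Ube3c, Nsun5 and Rad54l2, where the counting variance was at least as large as the variance seen. Of all 12228 promoter pairs, 191 had no spread beyond counting in H3K27ac and 226 had none in H3K4me3. At Ube3c, a ubiquitin ligase, H3K27ac ran from 1.28 to 1.83 and H3K4me3 from 3.77 to 3.92, and at Rad54l2, a chromatin remodeller, from 2.42 to 2.70 and from 4.15 to 4.30.

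Promoters with few CpGs had larger median SDs and a larger share of correlated pairs. Of 7862 promoter pairs matched to a RefSeq promoter, the bin of 4 with 0 to 10 CpGs in the 250 bases before the start had a median SD of 0.32 for H3K27ac and 0.23 for H3K4me3, and the other bins had 0.26 and 0.14 to 0.15. The median r was 0.573 in that bin and 0.439 to 0.480 in the others, with 29.9% called positive against 18.6% to 20.9%. Levels were also lowest in that bin, with a median of 3.61 for H3K4me3 against 3.86 to 3.96. For H3K27ac it was 1.80 against 1.85 to 1.92, and the part of level in these differences was not tested. The TATA motif TATAAA, searched on both strands, was in 5.84% of the 7862 promoters, in 7.32% of the bin with the largest spread and in 5.75% of the steadiest bin. GGGCGG, the core of the SP1 site, was in 63.1% of all, in 58.1% of the most variable and in 62.0% of the steadiest. GGTCA, a core of nuclear receptor sites, was in 31.7%, 31.1% and 32.3%, and the full oestrogen response element, GGTCA and its reverse complement with 3 bases between, was in 1 promoter. CCAAT was in 35.4%, 33.2% and 33.9%, and a pair of TTTC with 2 bases between, a core of interferon response elements, in 2.40%, 3.10% and 2.29%. Of the 7 promoters shown, Muc4 holds TATAAA, Lcn2, Aqp5, Hipk2 and Ube3c hold GGGCGG, Pigr, Aqp5 and Ube3c hold GGTCA, and Padi1 holds none of the motifs searched.

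The genes of 24 lists were set beside all 12864 genes, of which 22.8% were called positive, with a median r of 0.490 and median SDs of 0.29 for H3K27ac and 0.18 for H3K4me3. No gene of the lists was called negative, against 30 of all 12864 genes (0.233%), so the lists lie near that share. At an unadjusted p under 0.05, 2 of their 341 genes had a negative r, and the same count was not taken over all genes. Of the cell type lists, 16 of 21 measured epithelial genes were called, with a median r of 0.843 and median SDs of 0.43 and 0.45, and 12 of 16 stromal genes, with a median r of 0.886 and SDs of 0.78 and 0.83. In the 7 animals other than 3, 4 and 10 the median r was 0.368 for the epithelial list and 0.579 for the stromal list, against 0.420 for all genes. With the epithelium minus stroma score held fixed, 344 of the 12864 genes (2.67%) were called positive, with a median r of 0.377, and 1 of the 21 epithelial and 2 of the 16 stromal genes, whose levels make up the score.

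Among epithelial genes, Lcn2, an iron-binding secreted protein, had H3K27ac from 0.48 through 2.15 to 3.01 and H3K4me3 from -0.94 through 2.79 to 4.22 (r = 0.977, rho = 0.927, adjusted p = 0.000425). Animal 10 was lowest in both marks, and H3K4me3 was the more variable (SD 0.92 for H3K27ac and 2.34 for H3K4me3, Pitman-Morgan adjusted p = 0.000771, and 0.00164 as deposited). At Ltf, the oestrogen-induced lactotransferrin, H3K27ac ran from -0.38 through 1.95 to 2.43 and H3K4me3 from -2.34 through 2.23 to 3.74 (r = 0.952, rho = 0.927, adjusted p = 0.00149). Cldn3, a tight junction protein, varied less, with H3K27ac from 2.03 to 2.79 and H3K4me3 from 3.35 to 4.45 (r = 0.785, rho = 0.733, adjusted p = 0.0367), and its r was 0.368 in the 7 animals. Its call ended without any of 6 animals (adjusted p of 0.0568 to 0.412, the highest without animal 10) and as deposited (adjusted p = 0.259).

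Among stromal genes, Mme, the membrane peptidase CD10, had H3K27ac from -0.29 through 1.11 to 2.86 and H3K4me3 from 1.81 through 3.14 to 4.28, both lowest in animal 7 (r = 0.967, rho = 0.952, adjusted p = 0.000752). Its r was 0.964 in the 7 animals. At Col3a1, a fibrillar collagen chain, H3K27ac ran from -0.55 through 0.34 to 2.18 and H3K4me3 from 0.61 through 1.72 to 3.88, both lowest in animal 6 (r = 0.867, rho = 0.915, adjusted p = 0.0116, and 0.0513 without animal 10). With the score held fixed r was 0.954 at Mme and 0.0587 at Col3a1. Smooth muscle genes were called at 6 of 14 (median r 0.562), against 22.8% of all genes. Among them was Synpo2, an actin-bundling protein, with H3K27ac from -0.09 to 2.32 and H3K4me3 from 1.6 to 3.73, both highest in animal 10 (r = 0.956, rho = 0.976, adjusted p = 0.00127). Mylk, the myosin light chain kinase, gave r = 0.887 (rho = 0.927, adjusted p = 0.00806).

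Endothelial genes were called at 4 of 11 (median r 0.632), against 22.8% of all genes. Among those called were the transcription factors Sox7 at r = 0.903 and Sox17 at r = 0.840 (adjusted p = 0.00587 and 0.0181, and 0.0641 and 0.131 as deposited). At Sox17 both marks were lower in animals 3, 4 and 10 than in all others. With the epithelium minus stroma score held fixed, r was 0.655 at Sox7 and 0.261 at Sox17, and both calls ended (adjusted p = 0.247 and 0.726). Of 7 measured macrophage genes 2 were called (median r 0.603). At Ctss, the lysosomal protease cathepsin S, H3K27ac ran from -0.64 to 2.45 and H3K4me3 from 0.77 to 3.4, both lowest in animal 3 and highest in animal 9 (r = 0.947, rho = 0.976, adjusted p = 0.00177). Genes of all leukocytes were called at 5 of 16 (median r 0.674), among them Cd53, a tetraspanin (r = 0.827, adjusted p = 0.0215). The call at Cd53 ended without animal 5 or animal 9 (adjusted p = 0.0541 and 0.0525) and as deposited (adjusted p = 0.0892). At Ptprc, the pan-leukocyte marker CD45, r was 0.731 (adjusted p = 0.0627), and 0.930 with the epithelium minus stroma score held fixed (adjusted p = 0.0282). T and NK cell genes were called at 0 of 4 (median r -0.037, and -0.228 in the 7 animals; 0 also at an unadjusted p under 0.05), B and plasma cell genes at 1 of 3, and mesothelial and adipocyte genes at 0 of 2 (median r 0.230, and 0.831 in the 7 animals; 1 at an unadjusted p under 0.05). Ciliated cell genes were called at 2 of 9 (median r 0.535, and 0.107 in the 7 animals), or 22.2%, near the share of all genes. The 2 were Ccdc40 and Cfap43, both axonemal (r = 0.864 and 0.832, adjusted p = 0.0122 and 0.0200). The call at Cfap43 ended without animal 7 or animal 10 (adjusted p = 0.0663 and 0.0748) and as deposited (adjusted p = 0.341).

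Oestrogen-responsive genes were called at 12 of 18, with a median r of 0.843, and progesterone-responsive genes at 11 of 17, with a median r of 0.799. Of all genes 22.8% were called, with a median r of 0.490. In the 7 animals other than 3, 4 and 10 the medians were 0.780 and 0.760. The mean level of the oestrogen list was 0.89 to 1.36 for H3K27ac and 1.87 to 2.30 for H3K4me3 in animals 3, 4 and 10, and 1.68 to 2.27 and 2.68 to 4.03 in the other 7, with no overlap. The mean level of the progesterone list was higher in those 3 animals for H3K27ac, at 1.76 to 2.2 against 1.07 to 1.69, and overlapped for H3K4me3, at 3.58 to 3.81 against 3.01 to 3.75. With the score held fixed, 1 of 18 oestrogen-responsive genes (median r 0.656) and 1 of 17 progesterone-responsive genes (median r 0.797) were called. In the oestrogen list, H3K27ac was the more variable mark at 1 of 18 genes and H3K4me3 at 6, against 18.9% and 1.64% of all genes, and as deposited at 0 and 5, against 0.0155% and 0.202% of all genes. The list shares Lcn2 and Ltf with the epithelial list. At Aqp5, a water channel, H3K27ac ran from -1.52 through 1.82 to 2.36 and H3K4me3 from -0.89 through 3.17 to 4.21, both lowest in animal 10 (r = 0.982, rho = 0.952, adjusted p = 0.000269). At Car2, carbonic anhydrase 2, H3K27ac ran from 1.41 to 3.18 and H3K4me3 from 3.53 to 4.99 (r = 0.898, rho = 0.903, adjusted p = 0.00644, and 0.0885 as deposited). With the score held fixed the calls at Aqp5, Car2 and Ltf ended, at r = 0.889, 0.657 and 0.485 (adjusted p = 0.051, 0.245 and 0.441). At Esr1, the oestrogen receptor itself, H3K27ac ran from 3.15 to 3.53 and H3K4me3 from 4.18 to 4.85, with SDs of 0.14 and 0.22 (r = 0.745, rho = 0.616, adjusted p = 0.0544). Without animal 10 its r was 0.940 (adjusted p = 0.00701), and as deposited it was 0.151 (adjusted p = 0.806).

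Of the progesterone targets, Ihh, the epithelial hedgehog ligand that signals to the stroma, had H3K27ac from -1.22 through 1.09 to 2.05 and H3K4me3 from 1.17 through 2.75 to 4.07, both lowest in animal 7 (r = 0.970, rho = 0.952, adjusted p = 0.000638). Its r was 0.965 in the 7 animals and 0.957 with the score held fixed. At Zbtb16, a progesterone-induced zinc finger factor, H3K27ac ran from -0.83 through 0.07 to 2.08 and H3K4me3 from 1.57 through 2.74 to 4.43 (r = 0.908, rho = 0.964, adjusted p = 0.00521). The call at Zbtb16 ended with the score held fixed (r = 0.825, adjusted p = 0.091).

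Collagen and matrix genes were called at 17 of 28 (median r 0.825, and 0.561 in the 7 animals), against 22.8% of all genes. The list of collagen and matrix genes shares members with the stromal list. At Lum, a matrix proteoglycan, H3K27ac ran from -0.34 through 0.45 to 2.56 and H3K4me3 from 0.01 through 0.64 to 2.77, both highest in animal 10 (r = 0.899, rho = 0.721, adjusted p = 0.00631, and 0.0723 without animal 10). At Lamc1, a laminin chain, r was 0.553 (adjusted p = 0.209). HOX genes, which set position along the reproductive tract, were called at 5 of 6 (median r 0.858, and 0.489 in the 7 animals). At Hoxa7 H3K27ac ran from 0.07 through 1.12 to 3.02 and H3K4me3 from 1.00 through 2.15 to 3.62, and at Hoxd11 from 0.34 to 2.70 and from 0.92 to 3.47. At both genes animal 2 was lowest and animal 10 highest in both marks (r = 0.928 and 0.919, adjusted p = 0.00328 and 0.00413), and r with the score held fixed was 0.299 and 0.271. Squamous genes were called at 5 of 7 (median r 0.813, and 0.508 in the 7 animals), among them Evpl, a cornified envelope protein, and Perp, a desmosomal protein (r = 0.903 and 0.774, adjusted p = 0.00587 and 0.0408). The call at Evpl ended without animal 10 (adjusted p = 0.0997), and that at Perp without any of 8 animals (adjusted p of 0.0593 to 0.186) and as deposited (adjusted p = 0.115).

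Of the immune lists, complement genes were called at 8 of 11 (median r 0.823), inflammatory genes at 10 of 21 (0.647), antigen presentation genes at 4 of 12 (0.684) and interferon-responsive genes at 7 of 25 (0.614). Of all genes 22.8% were called (median r 0.490), and the interferon list, at 28%, lay near that share. At C3, the central complement component, H3K27ac ran from 0.70 through 1.87 to 2.38 and H3K4me3 from -0.49 through 2.76 to 4.24 (r = 0.915, rho = 0.879, adjusted p = 0.00451). H3K4me3 was the more variable mark there, with SDs of 0.50 for H3K27ac and 1.76 for H3K4me3 (Pitman-Morgan adjusted p = 0.00153, and 0.0063 as deposited). Cfb, complement factor B, gave r = 0.913 (adjusted p = 0.00471). At the pair of the neutrophil chemokine gene Cxcl2, 3045 bases from the nearest gene start, H3K27ac ran from -0.70 through 1.62 to 2.86 and H3K4me3 from -0.92 through 1.39 to 2.83, both lowest in animal 3 and highest in animal 6 (r = 0.970, rho = 0.988, adjusted p = 0.000623). The antiviral oligoadenylate synthetase genes Oas2 and Oas3 gave r = 0.855 and 0.905 (adjusted p = 0.0142 and 0.00559), and the class II transactivator gene Ciita r = 0.874 (adjusted p = 0.0103). With the epithelium minus stroma score held fixed, 0 of 11 complement, 3 of 21 inflammatory, 1 of 12 antigen presentation and 2 of 25 interferon-responsive genes were called, against 2.67% of all genes. The calls at C3, Cfb, Oas2, Oas3 and Ciita then ended (adjusted p = 0.143, 0.587, 0.247, 0.185 and 0.106). Cxcl2 stayed past the threshold (r = 0.949, adjusted p = 0.0177).

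Genes of the cell cycle, the clock and early response were mixed. Proliferation genes were called at 10 of 25 (median r 0.574), against 22.8% of all genes. At Ccnb2, a mitotic cyclin, H3K27ac ran from -1.43 through 1.35 to 2.33 and H3K4me3 from 1.77 through 3.03 to 3.55, both lowest in animal 3 (r = 0.932, rho = 0.867, adjusted p = 0.0029, and 0.0637 as deposited). Clock genes were called at 6 of 12 (median r 0.796, and 0.769 in the 7 animals). At Nfil3, a repressor in the clock's output, H3K27ac ran from 1.06 through 1.30 to 2.35 and H3K4me3 from 3.08 through 3.34 to 3.94, both highest in animal 10 (r = 0.979, rho = 0.903, adjusted p = 0.00034, and 0.0642 as deposited). At Clock, a core activator, H3K27ac ran from 0.74 to 2.2 and H3K4me3 from 3.76 to 4.22 (r = 0.872, rho = 0.842, adjusted p = 0.0107, and 0.0563 as deposited), and H3K27ac was the more variable mark (adjusted p = 0.00725, and 0.368 as deposited). Immediate early genes were called at 6 of 23 (median r 0.615), or 26.1%, near the share of all genes. Among them was Dusp1, a MAP kinase phosphatase, at r = 0.976 (rho = 0.976, adjusted p = 0.000451). At Myc r was 0.643 (adjusted p = 0.123), and -0.0354 without the 2 farthest animals.

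Chromatin regulators had few correlated genes, 2 of 27 against 22.8% of all genes. Their median r was 0.280, and their median SDs were 0.26 for H3K27ac and 0.11 for H3K4me3. H3K27ac was the more variable mark at 10 of the 27, against 18.9% of all genes. As deposited it was so at 0 of the 27 (1 at an unadjusted p under 0.05), against 2 of all 12864 genes. At Kdm5b, an H3K4 demethylase, r was 0.763 (rho = 0.733, adjusted p = 0.0462), a call that ended without any of 9 animals (adjusted p of 0.0559 to 0.0997) and as deposited (adjusted p = 0.142). The r was 0.712 at Kdm6a, an H3K27 demethylase (adjusted p = 0.0734), and 0.656 at Tet1, a 5-methylcytosine dioxygenase (adjusted p = 0.113, and 0.0375 as deposited). Control genes used in all cell types were called at 4 of 22 (18.2%), with a median r of 0.401 and median SDs of 0.19 and 0.13. Among them was Tbp, the TATA-binding protein (r = 0.780, adjusted p = 0.0387), whose call ended without any of 8 animals (adjusted p of 0.0559 to 0.0752) and as deposited (adjusted p = 0.271). Over the 34 called list members named here, the permutation p of r ran from 1e-05 to 0.013, r without the 2 farthest animals from 0.439 to 0.981, and r in the 7 animals from 0.368 to 0.987.

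**Figure D5:**
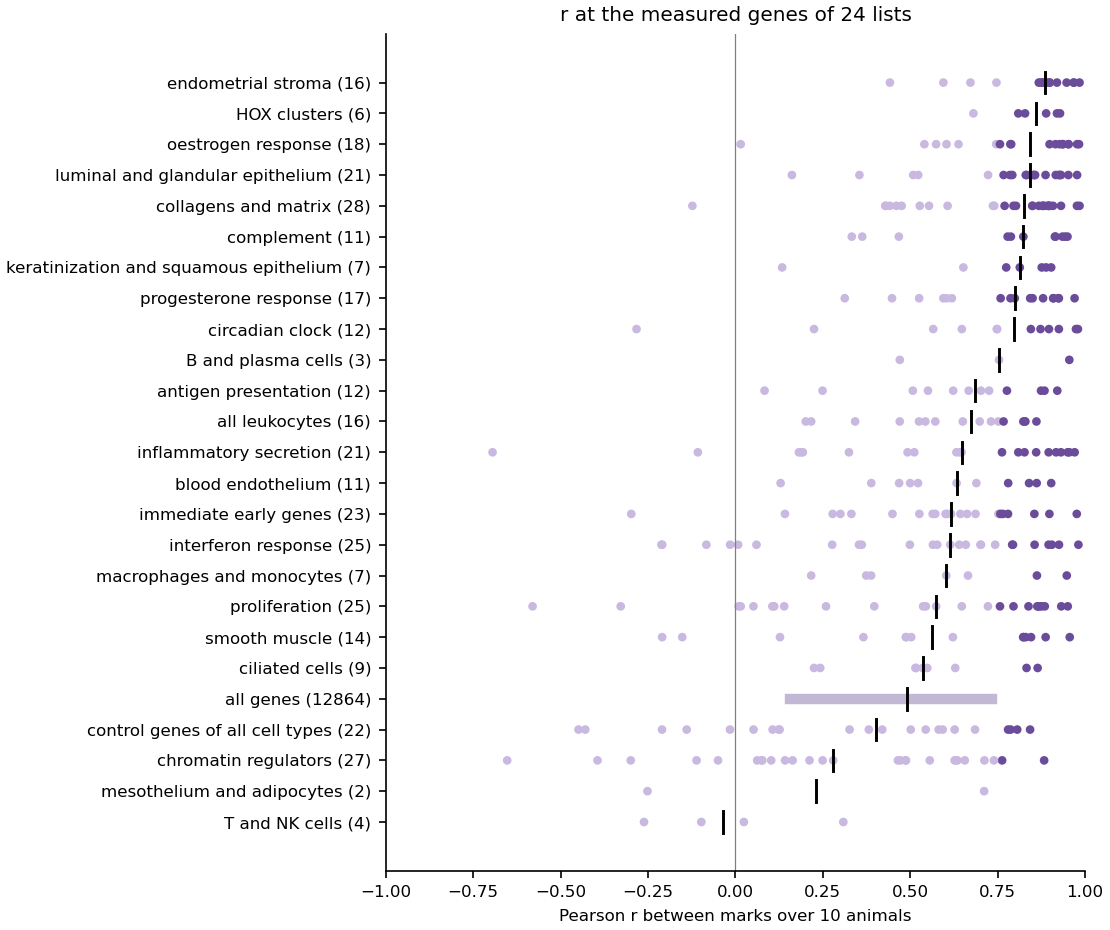
Pearson r between H3K27ac and H3K4me3 over 10 animals at every measured gene (points) of 24 gene lists, dark where the adjusted p is under 0.05, with the median as a black line and the number of measured genes in brackets. All 12864 genes are shown by their median of 0.490 and quartiles (bar). Stromal genes have the highest median, 0.886, and T and NK cell genes the lowest, -0.037.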

How the data were processed

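The authors deposited 1 table per mark, with peaks as rows, libraries as columns and log2 RPKM as values, where RPKM counts reads scaled for peak length and library total. Per the submitters' processing notes the genome was GRCm38 and Bowtie2 the aligner, and the tools deepTools 3.5.1, ChIPseeker 1.34.1, DESeq2, DiffBind 3.8.0 and MACS2 2.2.9.1 had a part that is not specified. Input libraries were not used here.

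The deposited log2 values gave whole reads within 0.05 in 100% of values, with an empty peak at 0.9 reads, and depth comes from those reads. Libraries of a mark differed by more than read counting in all 45 comparisons per mark (lowest chi-square per degree of freedom 2.16 for H3K27ac and 2.65 for H3K4me3). Peaks on chromosome Y, 8 per mark, were left out. Gene names are those of the tables, and RefSeq starts are of GRCm38.p6. The replicate numbers of the labels pair the 2 libraries of an animal, which share a mouse number, so the animal is the pair in every comparison of marks.

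Values were quantile normalized over the 10 libraries of a mark. Each pair was tested by Pearson r over animals and by the Pitman-Morgan test of equal variance, with Benjamini-Hochberg adjustment over all 18913 pairs. Relations across animals used 100000 permutations. SDs had the variance of read counting subtracted, except where stated, and the Pitman-Morgan test was run without that subtraction. A gene entered with its pair of highest H3K4me3. Named genes, apart from those of lists, had a mean level at or above the lower quartile of pairs in both marks and no predicted or clone symbol. They were those of largest spread (10), smallest p (8), lowest r (8), most unequal SDs (4 in each direction) and least spread (4), and up to 4 per list, and those described are a part of the last. Of the genes of largest spread 1 is not reported here. Members, lists and rules were chosen with earlier results of these data known. Python 3.11.15, numpy 2.4.6 and scipy 1.17.1 were used. Alternatives were the scaling, the read minimum, the pairing of peaks, rank correlation, covariates and left-out animals. Pairs share libraries and are not independent replicates.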

Additional observations from a re-analysis of the deposited data

Results flagged for a closer look

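In 10 of 156 sets of 10 animals' values, the gap between the highest or lowest animal and the next took up a share of the range (Dixon's ratio) above its critical value at 95%, and chance flags about 1 in 20 such sets. In 8 of the 10 the animal was number 10, the lowest in each. The ratio was 0.619 for H3K27ac and 0.592 for H3K4me3 at Rncr4, and 0.527 for H3K27ac and 0.484 for H3K4me3 at Ttc9, where animal 10 was low in both marks. In H3K27ac animal 10 was also low at Perp (0.649), Evpl (0.594), Fbln1 (0.572) and Rhobtb2 (0.508). Animal 3 was the highest at Tet1 in H3K27ac, with a ratio of 0.481. Animal 5 was the lowest at Myc in H3K4me3, with a ratio of 0.519 and a level of 4.24 beside 4.43 in the next animal.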

How the results depend on the processing

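Counts of correlated pairs depended on animals and scaling more than the median r did. Against 4370 pairs called positive and 55 negative, the values as deposited gave 1741 and 11, the epithelium minus stroma covariate 484 and 2, log2 total reads 1960 and 20, the 7 animals of the higher mouse numbers gave 1834 and 15, the 7 animals without library code digit 6 gave 986 and 10, and leaving out animals 3, 4 and 10, a choice made after seeing the data, gave 230 and 1. Settings with 7 animals have fewer degrees of freedom. Median centring gave 26 negative pairs and the mouse number series as covariate 36. The median r over pairs was 0.416 as deposited, 0.442 with Spearman rho, 0.356 with the score held fixed, 0.542 in the animals of higher numbers and 0.411 without animals 3, 4 and 10, and over genes it was 0.406, 0.442, 0.377, 0.535 and 0.419.

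The median SD ratio of 1.28 was 0.973 as deposited, 1.14 with quantile normalization over 27 libraries, 1.4 with a minimum of 50 reads and 1.09 without animals 3, 4 and 10. The 2771 pairs with H3K27ac more variable and the 782 with H3K4me3 more variable became 9 and 97 as deposited, 1252 and 483 with median centring, 346 and 149 in the animals of higher numbers, 324 and 73 without digit 6, and 183 and 155 without animals 3, 4 and 10. A minimum of 50 reads left 467 with H3K4me3 more variable. With no replicate block, an F test that ignores the pairing by animal called 1448 and 294. The epithelium minus stroma r was 0.603 without animals 3, 4 and 10. The r at Rhobtb2 became 0.185 with that score held fixed and at Lrr1 0.160 with total reads held fixed, and the variance contrast at Fbxo42 became -0.174 as deposited. The cause of these changes was not tested.

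Leaving out 1 animal at a time gave 2914 to 4062 positive and 26 to 53 negative pairs, a median r of 0.465 to 0.517 over pairs and 0.463 to 0.508 over genes, an SD ratio of 1.20 to 1.29, 1541 to 2151 pairs with H3K27ac and 530 to 739 with H3K4me3 more variable, r of 0.982 to 0.995 for the first component and 0.911 to 0.968 for the score, and a coupling difference of 0.0970 to 0.119. The 1541 came without animal 3. The meaning of the library code digit and the mouse number is not given in the sources used here, and 10 animals limit the precision of each r.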
